A study of Mus musculus with 6 samples.

Results

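Embryonic globins and the genes that drive primitive red cell formation were examined in tailbud RNA from 6 mouse embryos. The 10 genes were chosen from the 35506 genes of the table for their large spread between libraries. They are the embryonic globins Hbb-bh1, Hbb-y and Hba-x, the adult globins Hba-a1, Hba-a2, Hbb-bt and Hbb-bs, and the red cell regulators and haem enzyme Gata1, Klf1 and Alas2. Because spread chose these genes, their spread is given below as a description and without a test. Of the 10 genes, 9 had enough reads for the comparison of genotypes, and Hba-a2 did not.

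The tailbud contains the presomitic mesoderm and was dissected at E8.5 from embryos with 8 somites. The WT libraries came from 3 Smchd1+/+ embryos and the MommeD43 libraries from 3 Smchd1 MommeD43/MommeD43 embryos, all of strain FVB/NJ and with no treatment given in the labels. MommeD43 is a missense allele of Smchd1, which encodes a chromatin protein, and was isolated in a chemical (ENU) mutagenesis screen. The screen line carried a GFP transgene array expressed in red cells, and per the study's methods the allele was later bred away from that transgene. Replicate 1 of each genotype was a male and the other replicates, 2 and 3, females. The males shared a mother, whereas each of the 4 females had a different mother. A source label reads NSCs, whereas the titles and the tissue label give tailbud. T, the mesodermal transcription factor that defines the tailbud, was at 117.4 to 188.5 RPKM (reads of a gene scaled to its exon length in kilobases and to the library total) in every library, and Msgn1, a presomitic mesoderm factor, was at 76.2 to 123.0 RPKM.

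Library totals ranged from 10957916 to 47298348 reads. The mean chi-square per gene between replicates of a group was 4.67 to 23.7, above the value near 1 that counting error would give, so that each embryo counted as a separate replicate. Scaled to the library total without regard to length (RPM), globin genes took 10.95, 338.8 and 177.1 RPM in WT replicates 1, 2 and 3, and 35.6, 160.0 and 33.4 RPM in MommeD43 replicates 1, 2 and 3. Both groups therefore held libraries rich and poor in globin reads.

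Haemoglobin is built from alpha-like and beta-like globin chains, whose genes lie in separate clusters and are switched during development. The first red cells of the mouse, the primitive erythroid lineage, arise in blood islands of the yolk sac and use mainly the embryonic chains. The adult chains dominate in the definitive red cells that form later. GATA1 and KLF1 are transcription factors that activate globin genes, and ALAS2 performs the first step of haem synthesis in red cells.

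The start of each coding sequence shows how far the chains can be told apart by their reads. Sequences are from GRCm38 with GENCODE M21, 5′ to 3′ on the gene's strand, and cover the first 75 coding bases, the length of 1 read. Capitals in the beta-like genes mark bases that differ from Hbb-bs, at chr7:103827801-103827875 (minus strand). Hbb-bh1 starts at chr7:103843036-103843110 and Hbb-y at chr7:103853078-103853152, both on the minus strand.
Hbb-bs: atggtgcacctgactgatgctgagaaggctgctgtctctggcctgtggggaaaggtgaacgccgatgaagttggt
Hbb-bh1: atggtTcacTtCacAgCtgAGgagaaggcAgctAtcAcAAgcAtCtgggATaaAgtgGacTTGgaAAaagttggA
Hbb-y: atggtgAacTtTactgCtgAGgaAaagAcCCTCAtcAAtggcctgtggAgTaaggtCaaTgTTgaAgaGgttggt

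Hbb-bh1 differed from Hbb-bs at 24 of these bases and Hbb-y at 23. Hbb-bt was identical to Hbb-bs over the stretch. In the alpha-like pair, capitals mark the 38 bases of Hba-x (chr11:32276664-32276738, plus strand) that differ from Hba-a1 (chr11:32283707-32283781, plus strand).
Hba-a1: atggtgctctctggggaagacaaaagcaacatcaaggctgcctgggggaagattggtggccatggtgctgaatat
Hba-x: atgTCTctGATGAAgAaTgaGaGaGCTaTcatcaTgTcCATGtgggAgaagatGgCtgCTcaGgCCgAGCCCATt

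Hba-a2 was identical to Hba-a1 over the stretch. Over the whole coding sequence, Hbb-bs and Hbb-bt were 99.8% identical, and so were Hba-a1 and Hba-a2. Of all 75-base windows in the Hbb-bs transcript, 64.3% also occur in Hbb-bt, and 81.0% of those in Hba-a2 also occur in Hba-a1. The split of reads within each adult pair is therefore uncertain, as how reads with several matches were handled is not given in the sources used here. Hbb-bh1 and Hbb-y were 76.4% identical in coding sequence and Hba-x and Hba-a1 61.7%. The embryonic genes shared no 75-base window with any other globin compared, so their reads can be assigned.

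The summed level of embryonic globin RNA differed by 87.4 times between the highest and the lowest of these tailbuds, which were of the same stage. Hbb-bh1 (ENSMUSG00000052217, chr7:103841637-103843164, minus strand), the main early embryonic beta-like chain, stood at 2.63, 299.9 and 112.7 RPKM in WT replicates 1, 2 and 3. In MommeD43 replicates 1, 2 and 3 it stood at 7.89, 123.6 and 9.85 RPKM. WT replicates 2 and 3 and MommeD43 replicate 2 were high and the other libraries low, so that the genotypes overlapped. The highest level was 114 times the lowest. These values rest on 59 reads in WT replicate 1, 53 in MommeD43 replicate 1 and 79 in MommeD43 replicate 3, against 1148 to 4343 in the others. The order of the low libraries is set only in part: WT replicate 1 lay below both, whereas MommeD43 replicates 1 and 3 had overlapping exact 95% binomial intervals (5.91 to 10.3 and 7.80 to 12.3 RPKM, counting error only).

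Hba-x (ENSMUSG00000055609, chr11:32276400-32278116, plus strand), the embryonic alpha-like zeta chain, lies on another chromosome. It was at 0.728, 118.6 and 44.4 RPKM in the WT replicates and at 3.60, 56.5 and 4.15 RPKM in the MommeD43 replicates. The same libraries were high and low as for Hbb-bh1, and the highest level was 163 times the lowest. Hbb-y (ENSMUSG00000052187, chr7:103851749-103853216, minus strand), the embryonic beta-like epsilon-y chain, was at 1.98, 48.6 and 15.5 RPKM in WT and at 1.87, 27.4 and 0.483 RPKM in MommeD43 replicates. Its lowest library was MommeD43 replicate 3, with 4 reads, and not WT replicate 1 with 46.

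Adult globins followed another order. Hbb-bs (ENSMUSG00000052305, chr7:103826534-103828096, minus strand), an adult beta chain, was at 5.41, 1.16 and 35.0 RPKM in WT and at 16.8, 6.33 and 13.9 RPKM in MommeD43 replicates. WT replicate 2, the library with the most embryonic globin, thus had the least Hbb-bs (21 reads). Hbb-bt (ENSMUSG00000073940, chr7:103812524-103813996, minus strand), the other adult beta chain, was also lowest there, at 0.241 RPKM (4 reads). It was at 0.699 and 7.53 RPKM in WT replicates 1 and 3 and at 5.19, 1.05 and 8.69 RPKM in MommeD43 replicates. Hba-a1 (ENSMUSG00000069919, chr11:32283511-32284465, plus strand), an adult alpha chain, varied least among the tested globins, by 8.88 times. It was at 3.36, 14.6 and 29.9 RPKM in WT and at 11.9, 10.05 and 7.81 RPKM in MommeD43 replicates. Hba-a2 (ENSMUSG00000069917, chr11:32296489-32297298, plus strand) held 0 to 4 reads a library and 8 in all, so no difference was detectable at this depth.

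Gata1, Klf1 and Alas2 were much scarcer than the embryonic globins, and the same 3 libraries were highest for each. Gata1 (ENSMUSG00000031162, chrX:7959260-7978071, minus strand) held 0, 32 and 11 reads in WT and 0, 25 and 0 reads in MommeD43 replicates 1, 2 and 3. The level in WT replicate 2, 0.556 RPKM, was at least 16.5-fold higher than in WT replicate 1, where no read allows up to 0.0336 RPKM (3 reads in that library). Klf1 (ENSMUSG00000054191, chr8:84901928-84905291, plus strand) was at 0.125, 0.913 and 0.629 RPKM in WT and at 0.0596, 0.622 and 0.150 RPKM in MommeD43 replicates, from 1 to 45 reads. Alas2 (ENSMUSG00000025270, chrX:150547375-150570638, plus strand) was at 0.0909, 1.36 and 1.28 RPKM in WT and at 0.0760, 1.08 and 0.191 RPKM in MommeD43 replicates, from 2 to 123 reads. Of the Alas2 exons, 15.5% overlap a gene on the other strand, and how strand was used in counting is not given in the sources used here. In bulk tissue, fewer red cells and less of a transcript per red cell cannot be told apart.

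**Figure D1:**
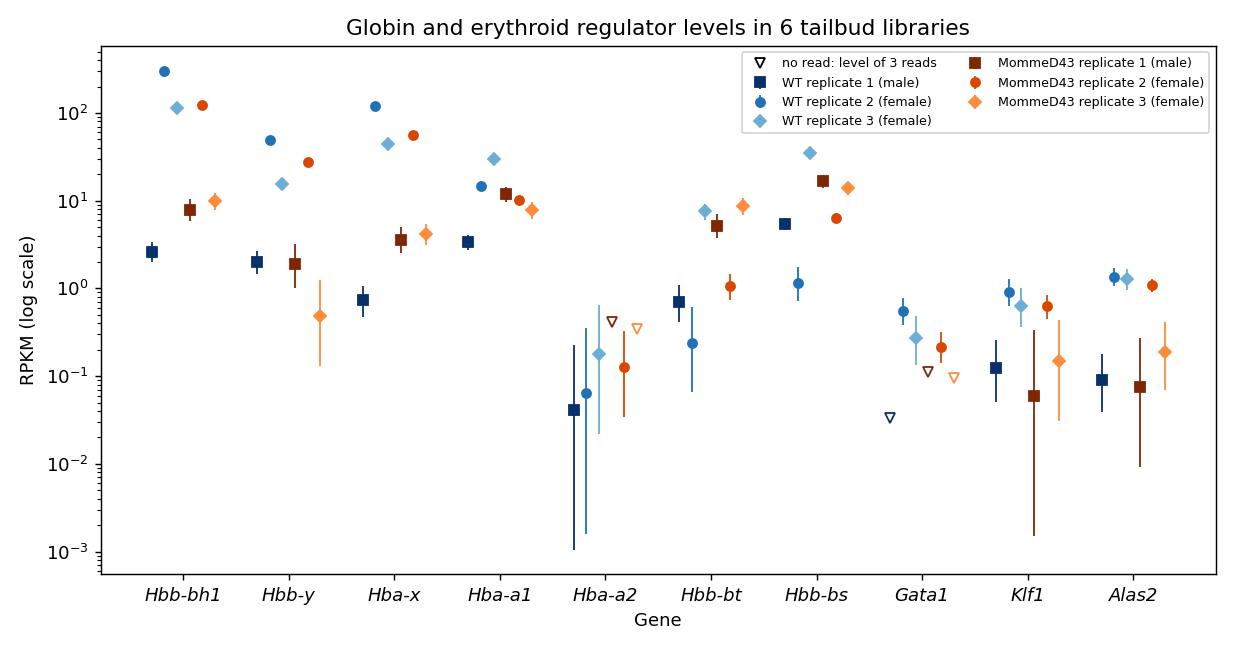
RPKM of each of the 10 genes (log axis) in each library, with exact 95% binomial intervals of the reads; blue points are WT and orange to brown points MommeD43, squares mark males, and open triangles mark the level of 3 reads where a library had no read. WT replicates 2 and 3 and MommeD43 replicate 2 stand above the other libraries for the embryonic globins, Gata1, Klf1 and Alas2, but not for Hbb-bs and Hbb-bt.

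By the standard deviation (SD) of log2 RPKM over the 6 libraries, Hba-x ranked 4, Hbb-bh1 8, Hbb-y 9 and Gata1 16 among the 14123 genes tested. Hba-a1 ranked 291, the lowest of the 9 genes. These ranks describe how the genes were chosen.

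The balance of embryonic to adult chains was then read within each library, where it does not depend on the library total. Of the beta-like reads, 38.2%, 99.5% and 71.0% came from Hbb-bh1 and Hbb-y in WT replicates 1, 2 and 3. In MommeD43 replicates 1, 2 and 3 the share was 26.7%, 94.3% and 27.4%. The exact (Clopper-Pearson) 95% intervals were 21.3% to 32.7% in MommeD43 replicate 1 and 22.4% to 32.8% in replicate 3, which overlap, and 32.4% to 44.2% in WT replicate 1. Embryonic chains thus made up nearly all beta-like reads in WT replicate 2 and MommeD43 replicate 2, and a minority in the tailbuds with the least globin.

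As a ratio of RPKM, embryonic over adult beta-like chains were 0.756, 249.2 and 3.01 in WT and 0.445, 20.4 and 0.457 in MommeD43 replicates. The difference of the mean log2 ratio was -2.36 for MommeD43 minus WT, within SDs of 4.37 in WT and 3.18 in MommeD43 (n = 3 each, two-sided exact permutation test, p = 0.50). With 3 against 3 embryos this test cannot go below 0.10. The direction rested on WT replicate 2, and the difference was 0.09 without it.

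The alpha-like chains gave the same ranking of the libraries at the top. Hba-x made up 19.8%, 90.3% and 63.1% of alpha-like reads in WT and 25.9%, 86.5% and 38.1% in MommeD43 replicates. Its RPKM over that of Hba-a1 and Hba-a2 was 0.214, 8.09 and 1.48 in WT and 0.302, 5.55 and 0.532 in MommeD43 replicates. The difference of the mean log2 ratio was -0.51 (SD 2.62 in WT and 2.23 in MommeD43, n = 3 each, exact permutation p = 0.80). It turned to 0.78 without WT replicate 2 and to 0.33 without MommeD43 replicate 1.

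The summed level of the embryonic globins was 5.34, 467.0 and 172.6 RPKM in WT and 13.4, 207.5 and 14.5 RPKM in MommeD43 replicates. The mean log2 difference was -1.14 (SD 3.39 in WT and 2.25 in MommeD43, n = 3 each, exact permutation p = 0.90), and it was 0.17 without WT replicate 2. The summed adult globins spanned a narrower range, with 9.51, 16.1 and 72.6 RPKM in WT and 33.9, 17.6 and 30.4 RPKM in MommeD43 replicates. The spread in total globin RNA was thus mostly a spread in embryonic chains.

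Within the embryonic beta-like pair, Hbb-y made up 43.8%, 14.3% and 12.4% of the reads in WT and 19.7%, 18.6% and 4.82% in MommeD43 replicates. The exact 95% interval was 34.1% to 53.8% in WT replicate 1 and 1.33% to 11.9% in MommeD43 replicate 3, so these libraries differed beyond counting error. Between genotypes the mean log2 ratio of Hbb-y to Hbb-bh1 differed by -0.90 (SD 1.36 in WT and 1.29 in MommeD43, n = 3 each, exact permutation p = 0.60). The difference was -0.12 without WT replicate 1 and -0.16 without MommeD43 replicate 3.

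Hbb-bh1 and Hba-x, from separate chromosomes, kept a narrow ratio while each varied by over 100-fold. This ratio was singled out after its values were seen and is given without a test. Hbb-bh1 was 3.61, 2.53 and 2.53 times Hba-x in WT and 2.19, 2.19 and 2.37 times Hba-x in MommeD43 replicates. Every MommeD43 ratio thus lay below every WT ratio. As the ratio was picked for its values, this order is not taken as an effect of genotype. Exact binomial intervals of the Hbb-bh1 share of both genes' reads were 59.3% to 79.7% in WT replicate 1. They were 48.0% to 69.2% and 51.8% to 69.2% in MommeD43 replicates 1 and 3. Intervals overlapped between genotypes, except that of MommeD43 replicate 2 with those of WT replicates 2 and 3. The ratio rests on 84 reads in WT replicate 1, 90 in MommeD43 replicate 1 and 130 in MommeD43 replicate 3.

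**Figure D2:**
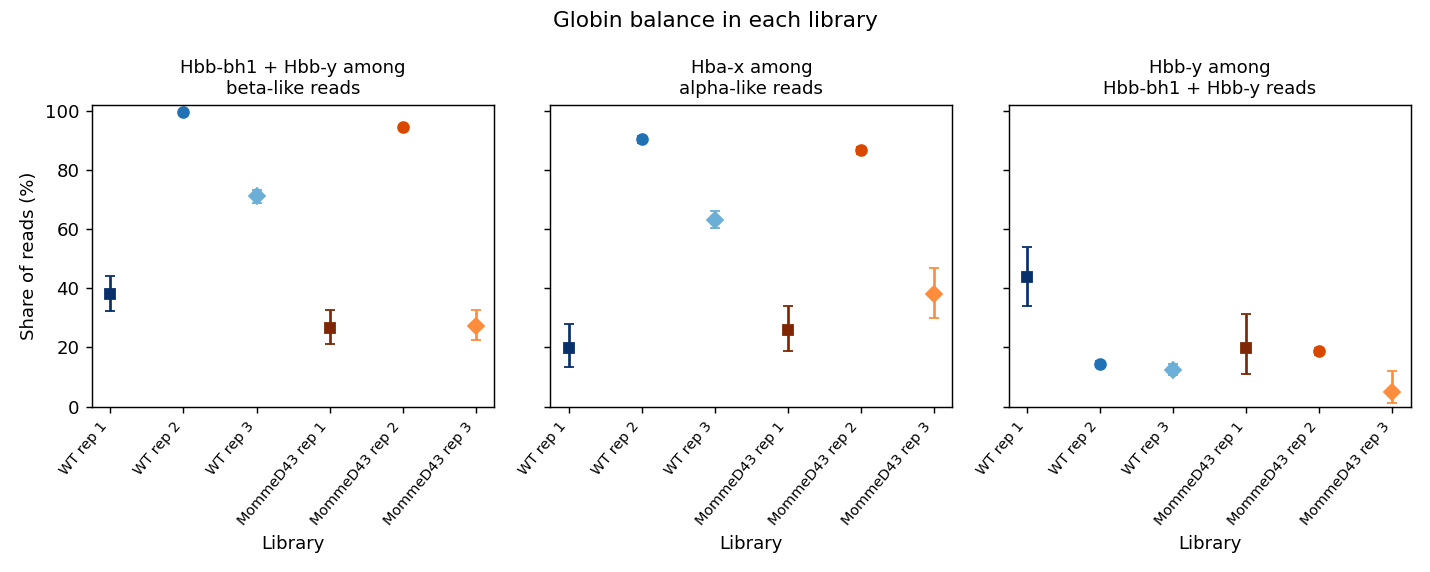
Share of reads (%) in each library from embryonic genes among beta-like globins (left), from Hba-x among alpha-like globins (middle) and from Hbb-y among the embryonic beta-like pair (right), with exact 95% intervals. WT replicate 2 and MommeD43 replicate 2 are at 99.5% and 94.3% in the left panel, and WT replicate 1 and MommeD43 replicate 3 hold the extremes of 43.8% and 4.82% in the right panel.

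Whether MommeD43 changes these genes was asked in a limma fit over all genes, with Benjamini-Hochberg adjustment. None of the 9 tested genes passed an adjusted p of 0.05, against 0% of the 14123 genes tested (0 genes, with 341 at an unadjusted p under 0.05 and also 0 called by voom). At an unadjusted p under 0.05 there were 0 of the 9. The mean of Hbb-bh1 was 138.4 ± 150.3 RPKM for WT against 47.1 ± 66.2 RPKM for MommeD43 (SD, n = 3 each), and that of Hba-x was 54.6 ± 59.6 against 21.4 ± 30.4 RPKM. On the log2 scale Hbb-bh1 had a fold change of -1.07 with a standard error of 1.71, and Hba-x of -0.73 with 1.82. The adjusted p was 0.9995 for each of the 9 genes (limma). The direction for Hbb-bh1 and Hba-x was not stable, at 0.30 and 0.73 without WT replicate 2.

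The other members also had large standard errors beside their fold changes. For Hbb-y the means were 22.0 ± 24.0 RPKM (WT) and 9.93 ± 15.2 RPKM (MommeD43), with a log2 fold change of -1.97 (SE 1.53). Leaving out MommeD43 replicate 2 gave -3.59, and leaving out MommeD43 replicate 3 gave -0.67. The regulators had -0.96 (SE 1.48) for Gata1, -1.23 (SE 0.97) for Klf1 and -1.11 (SE 1.22) for Alas2. For Gata1 this value depends on the level of 0.9 read given to libraries without a read, and it was 0.18 without WT replicate 2. Adult beta chains had the opposite sign, with 1.74 (SE 1.22) for Hbb-bt and 0.92 (SE 1.04) for Hbb-bs, and Hbb-bs was at -0.27 without WT replicate 2. Hba-a1 was at -0.22 (SE 0.66), and at 0.48 without WT replicate 3. The groups did not separate for any of the 9, against 3.54% of all tested genes with every MommeD43 library below every WT library and 3.53% with every one above.

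Genotype effects were also compared between sexes, as the effect in the male pair minus that in the females, with 1 male embryo per genotype. None of the 9 genes passed, against 0.248% of all tested genes (35 genes). The values ran from 0.25 for Klf1 to 4.55 for Hba-x (adjusted p = 0.455, limma). Hba-a1 had the smallest adjusted p among them, with 3.06 (adjusted p = 0.108, limma).

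Genes whose pattern over the 6 libraries lay nearest to the embryonic globins were sought among all tested genes, by the root mean square distance of centred log2 RPKM from the mean of Hbb-bh1, Hbb-y and Hba-x. Near ones included Slc4a1, the anion exchanger band 3 (0.72), and Ermap, an erythroblast membrane protein (0.83), both on a list of red cell membrane and skeleton genes. The median distance over all other tested genes was 2.44.

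Slc4a1 illustrates the pattern, with 0.00558, 1.26 and 0.357 RPKM in WT replicates and 0.808 and 0.0312 RPKM in MommeD43 replicates 2 and 3, and no read in MommeD43 replicate 1. Ermap held 0, 30 and 9 reads in WT and 2, 26 and 1 reads in MommeD43 replicates. These are low counts, in which the libraries without a read share an assigned level.

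By the same distance, Gata1 was at 0.51, Alas2 at 0.93 and Klf1 at 1.24 from the embryonic mean, nearer than the median gene. Gata1 had no read in WT replicate 1 and MommeD43 replicates 1 and 3, where the assigned level was -6.63, -4.89 and -5.15 log2 RPKM. The distance of Gata1 therefore rests in part on assigned values. Hba-a1 was at 1.90, whereas Hbb-bs (3.32) and Hbb-bt (3.66) were farther than the median gene. Of the 10 nearest genes, 6 were on none of the lists, namely Cav2 (1.28), Mab21l2 (1.38), Cav1 (1.40), Lrrn3 (1.50), Postn (1.50) and Zfp987 (1.52). Postn, which encodes the matrix protein periostin, was highest in MommeD43 replicate 2 at 6.72 RPKM, followed by WT replicate 2 at 2.99 RPKM, so its highest library was not that of the globins.

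**Figure D3:**
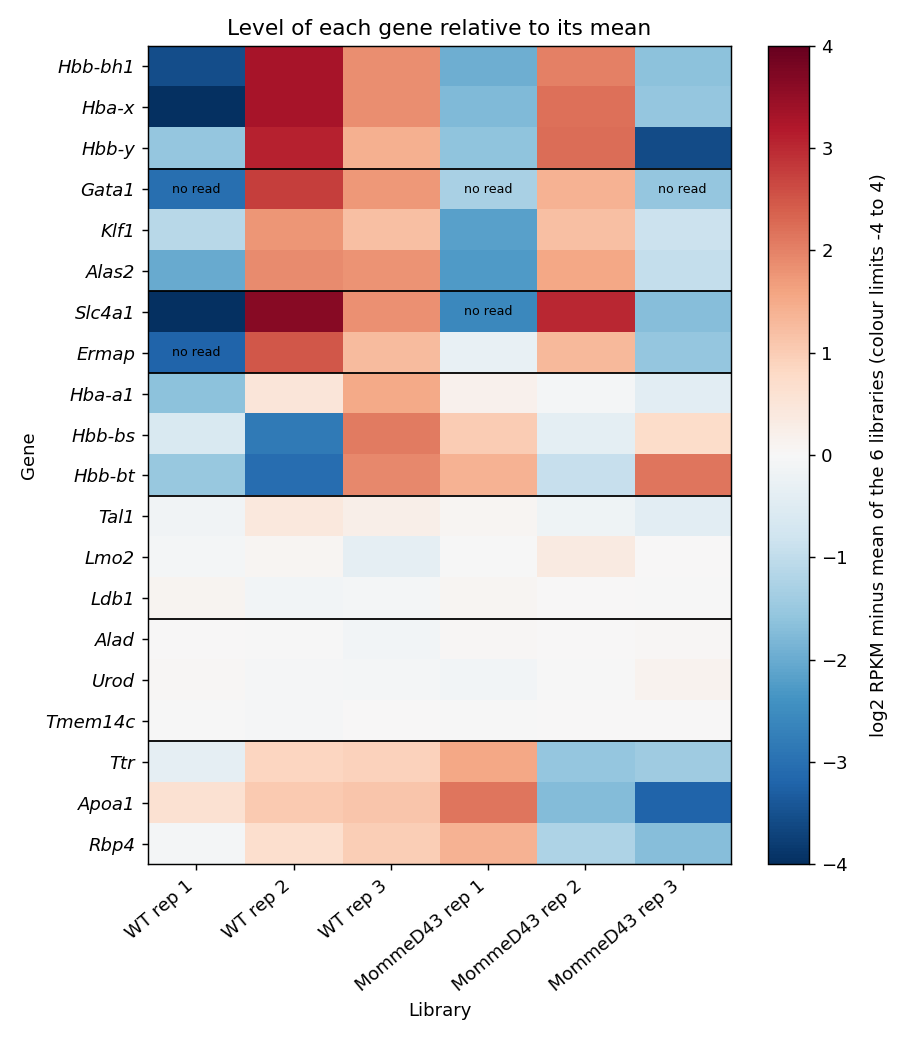
Log2 RPKM of each gene minus its mean over the 6 libraries (colour, limits -4 to 4), with genes in rows and libraries in columns; cells marked no read carry the assigned level of 0.9 read. Embryonic globins, regulators, Slc4a1 and Ermap are high in WT replicates 2 and 3 and MommeD43 replicate 2, whereas Tal1, Lmo2, Ldb1 and the haem genes Alad, Urod and Tmem14c are nearly even.

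Other genes of the red cell programme were mostly even between libraries. Of 12 tested red cell membrane and skeleton genes (18 listed), 0 passed the genotype test, with a median log2 fold change of -0.13 against 0.002 over all tested genes. The most abundant of these, Epb41, encodes a protein of the membrane skeleton and was at 10.97 to 12.5 RPKM in every library. Of 11 haem synthesis genes 0 passed, with a median of 0.03. Their summed level was 189.3 to 201.2 RPKM, and Alad, which makes porphobilinogen, varied from 41.2 to 46.5 RPKM. Of these lists Alad was the only gene whose genotypes did not overlap, being higher in MommeD43. Its highest WT library was at 44.9 RPKM and its lowest MommeD43 library at 45.3 RPKM. Among all tested genes, 3.53% likewise had every MommeD43 library above every WT library, so a single such gene is not singled out as an effect.

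Haematopoietic transcription factors (12 tested of 16) likewise had 0 calls and a median of -0.02. Tal1, a factor needed for all blood lineages, was at 4.63, 6.79 and 5.95 RPKM in WT and at 5.38, 4.56 and 3.77 RPKM in MommeD43 replicates. Lmo2, which bridges GATA and TAL1 complexes, was at 20.4 to 33.9 RPKM, and Ldb1, its partner, at 39.8 to 46.5 RPKM. Iron uptake and storage genes (8 tested) had 0 calls and a median of 0.005, with Tfrc, the transferrin receptor, at 28.5 to 35.1 RPKM. The 6 tested genes of the remaining red cell list, such as Prdx2, an antioxidant of red cells at 141.2 to 157.8 RPKM, had 0 calls and a median of 0.07. The minor globins Hbq1a, Hbq1b and Hbb-bh2 had no read in any library, which allows up to 0.491 RPKM (3 reads of Hbb-bh2 in the shallowest library).

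Markers of other cell types were read in the same libraries, and their part in the globin values was not tested. The 14 yolk sac endoderm markers, genes of the layer that lies next to the blood islands, summed to 174.9, 289.8 and 330.4 RPKM in WT and to 514.1, 60.0 and 43.4 RPKM in MommeD43 replicates. Their order differed from that of the embryonic globins, since MommeD43 replicate 1 was highest for the endoderm list and low in globins, and MommeD43 replicate 2 was the reverse. Ttr, the thyroxine carrier transthyretin, was at 29.0, 66.3 and 69.9 RPKM in WT and at 108.0, 12.6 and 13.9 RPKM in MommeD43 replicates. The 14 genes had a median log2 fold change of -1.11 between genotypes with 0 calls, beside -1.07 for the 3 embryonic globins. In the comparison of genotype effects between sexes, 9 of these 14 genes passed, all more positive in the male pair, against 0.248% of all tested genes (28 of those 35 genes more positive in the male pair). Ttr had 4.26 (adjusted p = 0.000124, limma). With 1 male embryo per genotype, the spread in this test comes from the females, and a sex difference cannot be told apart from a difference between single male embryos.

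White cell markers were near 0. Of 15, 14 were below 1 RPKM in every library, and 4 had no read (C1qa, Adgre1 and Cx3cr1 of macrophages and Elane of neutrophils). The list summed to 0.599 to 1.59 RPKM in 5 libraries and to 3.76 RPKM in MommeD43 replicate 1. Of 10 platelet and megakaryocyte markers, 9 were below 1 RPKM in every library, including Itga2b, the platelet integrin, at 0.436 to 0.904 RPKM, and Ppbp and Treml1 had no read. Of the genes tested, 2 on the white cell list and 3 on the platelet list, 0 passed by genotype. Endothelial markers (13 tested, 0 called by genotype) summed to 82.9 to 112.2 RPKM, with Kdr, a receptor for VEGF, at 11.4 to 17.8 RPKM. The 10 tailbud and presomitic mesoderm markers summed to 561.1 to 796.0 RPKM and were highest in WT replicate 1, the library with the least embryonic globin. None of the 10 passed by genotype, whereas in the comparison between sexes, with the same limit of 1 male embryo per genotype and the background of 0.248%, T and Msgn1 passed with -0.91 and -1.06 (adjusted p = 0.0278 and 0.0262, limma).

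**Figure D4:**
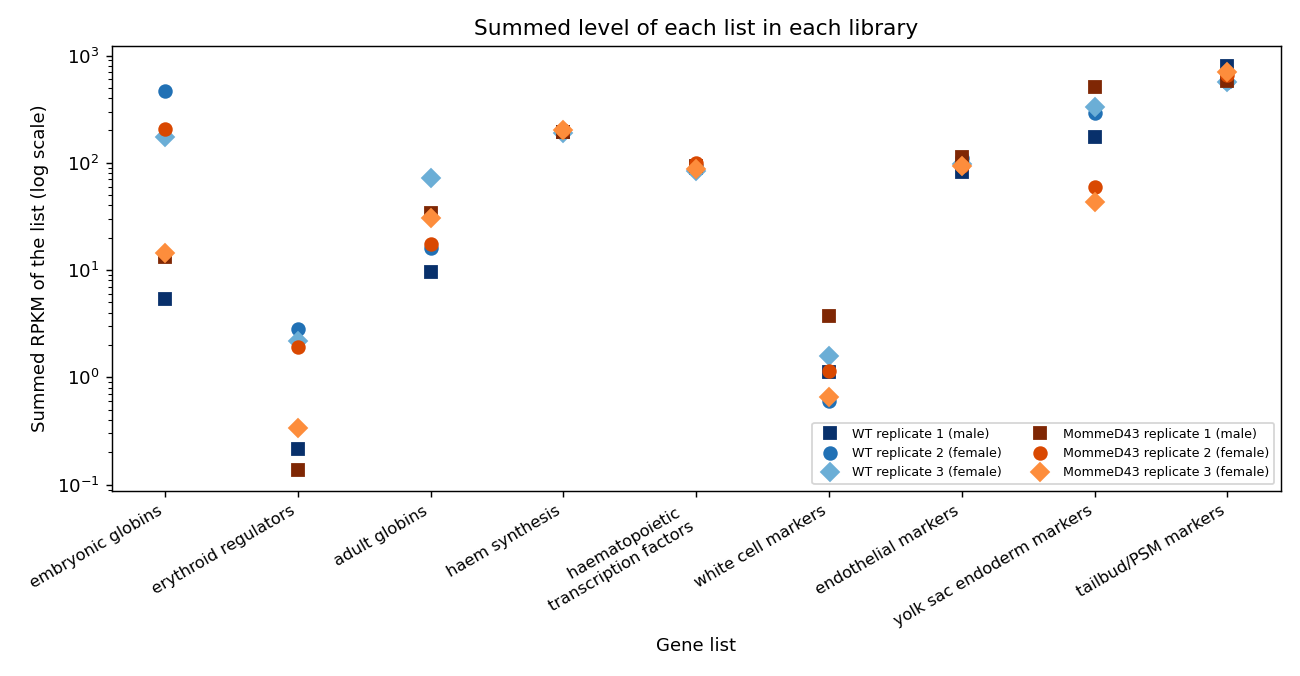
Summed RPKM of each gene list (log axis) in each library, with symbols for the 6 libraries as named in the legend; PSM stands for presomitic mesoderm. Embryonic globins run from 5.34 to 467.0 RPKM and yolk sac endoderm markers from 43.4 to 514.1 RPKM in a different order of libraries, whereas haem synthesis genes lie between 189.3 and 201.2 RPKM.

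The 100 bases upstream of the start site are shown for an embryonic and an adult gene of the beta-like cluster, since Hbb-y was high in the libraries rich in embryonic globins and Hbb-bs did not follow it. Start sites are those of RefSeq in GRCm38.p6, whereas in GENCODE M21 the Hbb-y gene starts a short way inside its stretch and the Hbb-bs gene starts upstream of its stretch, which it spans. They lie at chr7:103853208-103853307 (Hbb-y) and chr7:103827929-103828028 (Hbb-bs) on the minus strand. Capitals mark CACCC (the letters of the KLF1 box), GATAA (GATA box) and CCAAT on either strand, and TATAA on the gene's strand.
Hbb-y: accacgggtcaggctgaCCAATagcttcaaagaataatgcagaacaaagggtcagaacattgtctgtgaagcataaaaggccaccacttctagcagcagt
Hbb-bs: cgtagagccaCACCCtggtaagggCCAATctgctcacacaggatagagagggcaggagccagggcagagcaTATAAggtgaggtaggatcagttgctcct

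CCAAT was found in both stretches, CACCC and TATAA in that of Hbb-bs, and GATAA in neither. No matches overlapped one another. Over 250 upstream bases, CACCC was present in 9 of the 9 members with a RefSeq entry and in 52% of 32851 promoters, and GATAA in 8 of 9 and in 22.6%. CCAAT was present in 6 of 9 and in 33.8%, and TATAA in 6 of 9 and in 16%. These matches are letters in a window and say nothing of binding in these embryos.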

How the data were processed

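Tailbud RNA of 6 embryos, 3 per genotype, was examined. Per the labels, libraries were made with a stranded TruSeq mRNA kit (the study's methods name this kit or an alternative). The authors used 75-base single-end reads, Trim Galore 0.4.4 and HISAT2 2.0.5 on GRCm38.p6. The authors quantified genes in SeqMonk and deposited log2 RPKM values. Whole reads recovered as RPKM × GENCODE M21 exon length × library total were whole within 0.02 for 99% of 76346 values, and a gene without a read sits at 0.9 read. Reads served for intervals, 3-read floors, shares and voom. Replicate numbers were taken from the labels, and unassigned columns numbered 0.

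Members and gene lists were chosen with earlier results of these data known, and 136 of 139 list genes matched. Named genes were the 10 members, the 3 most abundant tested genes of each list plus those past 0.05, and the 10 nearest genes (some are not reported here), with Tal1 added after its values were seen. Examples from these are given in the text.

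Genes reaching the CPM of 10 reads in a median library in at least 3 libraries, with at least 15 reads in all, were tested on the deposited log2 RPKM with limma 3.58.1 (R 4.3.3, mean-variance trend, two-sided). Balances used exact permutation (scipy 1.17.1). Limma was tested on simulated data. Alternatives were pseudocounts, filters, scalings, voom, sex, the replicate block, females alone and left-out libraries. Voom for the comparison between sexes was added after seeing the data.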

Additional observations from a re-analysis of the deposited data

Results flagged for a closer look

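The genotype effect on Hba-a1 took opposite directions in the sexes. In females, MommeD43 replicates 2 and 3 (10.05 and 7.81 RPKM) lay below WT replicates 2 and 3 (14.6 and 29.9 RPKM), whereas the MommeD43 male (11.9 RPKM) lay above the WT male (3.36 RPKM). The difference between the effects was 3.06 on the log2 scale and did not pass the test of that difference (limma, adjusted p = 0.108), with 1 male embryo per genotype. Hbb-bh1 and Hba-x likewise were higher in the MommeD43 male and lower on average in the MommeD43 females. Their differences between the effects were 3.98 and 4.55. Hba-a1 shares 62.2% of its 75-base windows with Hba-a2.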

How the results depend on the processing

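The genotype count stayed at 0 in 17 of 18 alternatives, leaving out each library (0 to 0) among them. It was 11 with females alone, all lower in MommeD43 and none a member. The count for the comparison between sexes was 54 with log2(RPKM + 1) and 132 with voom, an alternative added after seeing the data. Of 185 alternative values for single members, 175 kept their direction, 10 reversed and 0 changed a call. Voom turned Hbb-bh1 to 0.49, Hba-x to 1.03, Hba-a1 to 0.14 and Alas2 to 0.15. Leaving out 1 library gave -3.11 to 0.30 for Hbb-bh1, -2.94 to 0.73 for Hba-x (0.03 without WT replicate 3), -1.09 to 0.48 for Hba-a1, -0.27 to 2.19 for Hbb-bs and -2.72 to 0.18 for Gata1. Direction held, but the size moved by over 1.5 times, for Hbb-y (-3.59 to -0.67, and -0.24 with voom), Hbb-bt (0.66 without WT replicate 2 to 3.14 without WT replicate 3) and Klf1 (-2.14 without MommeD43 replicate 2 to -0.45 without MommeD43 replicate 1, and -0.26 with voom). Alas2 kept its direction when 1 library was left out (-2.39 without WT replicate 1 to -0.25 without MommeD43 replicate 1), but not with voom. Leaving out 1 library gave -4.20 to 0.0915 for the beta-like balance, -1.85 to 0.78 for the alpha-like balance (0.33 without MommeD43 replicate 1) and -3.05 to 0.17 for the summed embryonic level, and -1.35 to -0.12 for the ratio of Hbb-y to Hbb-bh1. The cause was not tested.

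Embryos of both genotypes were matched for somite number, but of the same-numbered replicates the labels give only those numbered 1 a shared mother, and they did not all deviate together (correlations 0.02, 0.18 and -0.15), so the numbers were not taken as pairs. By number, the beta-like balance, Hbb-y, Klf1 and Alas2 were lower in MommeD43 in 3 of 3 comparisons and Hbb-bt was higher in 3 of 3. The share of all tested genes that did so is not given here, so these counts are a description only. In the replicates numbered 1, the exact binomial intervals of WT and MommeD43 overlapped for Hbb-y (1.98 and 1.87 RPKM), Klf1 and Alas2, but not for Hbb-bt. Among the replicates numbered 2 they overlapped for Klf1 and Alas2, and among those numbered 3 for Klf1 and Hbb-bt. For Hbb-bt they were 6.04 to 9.28 RPKM in WT replicate 3 and 6.89 to 10.8 RPKM in MommeD43 replicate 3. With the replicate block the count was 0 (319 at an unadjusted p under 0.05, Hbb-bt and Klf1 among them, with an adjusted p of 0.9995 in limma), the beta-like balance had p = 0.25, the smallest that a sign-flip permutation of 3 pairs allows, and no other call changed. Low reads limit Gata1, Klf1 and the nearest genes, and 3 embryos per group with this spread limit every genotype comparison.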
